A study of Mus musculus with 12 samples.

Results

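Among 32494 genes in a deposited table of hypothalamic RNA sequencing, 363 carry a symbol made of Zfp and a number, leaving out Zfp264, and 285 of these had a mean of at least 5 CPM (reads of a gene scaled to a common library total) over the 12 libraries. These 285 genes, the abundant numbered Zfp genes of the mouse hypothalamus, are described here. They were chosen by that mean level over all libraries, so their levels are given as a description, and the rule does not use the difference between the groups. All 12 mice were male, carried floxed Smc3 alleles and received tamoxifen, and tissue was taken 5 weeks later. The growth field of the labels names mice of 8 weeks and does not tie that age to a step. The 7 WT mice lacked the transgene (Camk2a-cre/ERT2-) and the 5 cKO mice carried it (Camk2a-cre/ERT2+). The transgene makes a tamoxifen-activated Cre from the Camk2a promoter, which is active mainly in excitatory neurons of the forebrain. Other cells of the tissue may thus keep intact alleles, and the state of the alleles was not tested here. Libraries are named here by group and by the mouse number in their titles. Every title, those of cKO libraries included, also carries the word control, and the groups were taken from the WT or cKO name in the title and the genotype field.

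Most numbered Zfp genes encode proteins with C2H2 zinc fingers, short folds in which a pair of cysteines and a pair of histidines hold a zinc ion. Arrays of such fingers read DNA, RNA or other proteins. Many of them carry a KRAB domain before the fingers. KRAB proteins bind Trim28, which brings in the histone methyltransferase Setdb1 and heterochromatin proteins, and this machinery silences retroelements and keeps imprinted genes silent on one parental copy. Members without KRAB include transcription factors of neural development and proteins that act on RNA, ribosomes or ubiquitin. Cohesin, the ring complex that holds Smc3, shapes chromosome loops, and the submitters' design text names the role of SMC3 in the brain of adults as the question.

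WT 1 held 68.7 M reads and the other 11 libraries held 17.1 to 24.0 M. Smc3 went against the labels, with 81.6 ± 3.14 CPM (SD, n = 7; 76.8 to 85.7) in the libraries labelled WT and 131 ± 10.3 CPM (SD, n = 5; 116 to 144) in those labelled cKO. By limma this was a change of 0.67 log2 units (SE 0.05, adjusted p 3.06e-05). The sources used here do not give which exons are floxed, and every direction below is between libraries labelled cKO and libraries labelled WT. Of 15 hypothalamic markers 1 was under 1 CPM and 1 (Sim1) was higher in cKO, and their summed level was 145 to 789 CPM in WT and 231 to 793 CPM in cKO. Of 13 thalamic markers 7 were lower in cKO and none was at 0 (summed level 1760 to 2764 CPM in WT, 1457 to 1888 CPM in cKO), and of 7 neuronal markers 2 were higher (5200 to 5697 against 5793 to 6273 CPM). These marker counts are by limma at an adjusted p under 0.05, where 6.54% of all genes tested were higher and 7.6% lower. No marker of cortex and striatum, astrocytes, oligodendrocytes, microglia, endothelium, or ependyma and choroid plexus passed. The oligodendrocyte sum ran from 4193.4 to 10091.6 CPM in WT and from 4921.9 to 10151.5 CPM in cKO. In bulk tissue, fewer cells of a type and less RNA per cell cannot be told apart.

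The promoters of 4 members described below are shown so that both directions are represented: Zfp57, Zfp445 and Zfp598 were lower in the libraries labelled cKO and Zfp931 was higher. Each runs from 250 bases before the start to 50 after it, 5′ to 3′ on the gene's strand, as RefSeq gives it on GRCm38.p6. Capitals mark matches, on either strand, to GGGCGG (the GC box, bound by Sp1 and its relatives), CCAAT (bound by NF-Y) or TGCCGC (the hexamer that Zfp57 itself binds when methylated). The Zfp57 window, chr17:37000913-37001212 on the plus strand, belongs to the most upstream of 3 starts listed. Zfp445 lies at chr9:122865957-122866256 on the minus strand, Zfp598 at chr17:24669437-24669736 on the plus strand and Zfp931 at chr2:178078376-178078675 on the minus strand.
Zfp57: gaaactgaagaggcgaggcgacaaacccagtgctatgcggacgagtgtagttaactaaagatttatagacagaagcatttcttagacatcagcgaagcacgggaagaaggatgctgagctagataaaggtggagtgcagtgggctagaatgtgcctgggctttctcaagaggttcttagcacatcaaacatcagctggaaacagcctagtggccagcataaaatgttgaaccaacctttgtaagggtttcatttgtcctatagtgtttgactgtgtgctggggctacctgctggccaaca
Zfp445: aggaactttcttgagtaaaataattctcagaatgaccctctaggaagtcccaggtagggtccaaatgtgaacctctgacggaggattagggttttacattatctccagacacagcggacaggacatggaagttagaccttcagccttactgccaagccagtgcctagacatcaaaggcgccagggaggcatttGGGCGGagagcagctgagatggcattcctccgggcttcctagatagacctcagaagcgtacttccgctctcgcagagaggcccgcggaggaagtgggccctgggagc
Zfp598: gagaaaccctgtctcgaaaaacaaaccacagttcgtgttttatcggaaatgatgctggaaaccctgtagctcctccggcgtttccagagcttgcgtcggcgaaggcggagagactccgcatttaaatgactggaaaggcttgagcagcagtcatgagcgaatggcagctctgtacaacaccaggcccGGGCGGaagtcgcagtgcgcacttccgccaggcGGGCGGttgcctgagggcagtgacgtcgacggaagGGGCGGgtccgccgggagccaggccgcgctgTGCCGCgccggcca
Zfp931: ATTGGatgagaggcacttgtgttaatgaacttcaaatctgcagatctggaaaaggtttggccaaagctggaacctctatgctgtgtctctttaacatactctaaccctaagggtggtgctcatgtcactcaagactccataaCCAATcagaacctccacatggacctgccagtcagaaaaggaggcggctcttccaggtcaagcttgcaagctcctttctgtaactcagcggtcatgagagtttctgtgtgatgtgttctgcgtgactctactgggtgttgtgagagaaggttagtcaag
Zfp598 held 29 CG dinucleotides, 3 GC boxes and 1 hexamer, and Zfp931 held 3 CG dinucleotides and 2 CCAAT boxes. Zfp445 held 10 CG dinucleotides and 1 GC box, and Zfp57 held 6 and none of these motifs. RefSeq gave a promoter for 239 members. A GC box was present in 111 of them (46.4%), against 35.7% of all 32851 promoters of that length. CCAAT was present in 113 (47.3%, against 37.4%), and TGCCGC in 43 (17.99%, against 11.6%). The median number of CG dinucleotides was 16 in members and 7 in all promoters. Members had to reach a mean of 5 CPM and the 32851 promoters had no minimum level, so these are not like bases. Promoters of other genes at the members' levels were not compared. Among members past the test below, a GC box was found in 1 of the 10 promoters of genes higher in cKO and in 6 of the 11 of genes lower, CCAAT in 6 of 10 and 2 of 11, and TGCCGC in 2 of 10 and 2 of 11. These matches are a description of letters in a window and were not tested against the changes.

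The mean level of the 285 members ran from 5.03 to 299 CPM, with a median of 19.97 CPM. It was at least 100 CPM in 8 members and under 10 CPM in 61. The highest means were those of Zfp106, an RNA-binding protein needed for the upkeep of motor neurons (299 CPM), Zfp365, a centrosomal protein (221 CPM), Zfp445 (220 CPM), Zfp706 (164 CPM) and Zfp612 (125 CPM). Per kilobase of the longest annotated transcript the order was another, with Zfp365 at 51.8 CPM, Zfp706 at 37.1 CPM, Zfp445 at 35.5 CPM, Zfp207 at 33.9 CPM and Zfp106 at 32.9 CPM. Just inside the minimum were Zfp273 (mean 5.03 CPM), Zfp647 (5.06 CPM) and Zfp454 (5.07 CPM), and just outside it Zfp995 (4.66 CPM), Zfp469 (4.64 CPM) and Zfp472 (4.63 CPM). In 4 members the mean of one group was under 5 CPM, and none of these passed the test. The summed level of all members was 8290 ± 82.8 CPM (SD, n = 7; 8201 to 8388) in WT and 8256 ± 154 CPM (SD, n = 5; 8135 to 8521) in cKO, so the groups overlapped.

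Few members differed between the groups, and none by much. With limma on log2(CPM + 1), 24 of the 285 (8.42%) had an adjusted p under 0.05 over all 15359 genes tested, where the background was 14.1% of all genes and 15.3% of genes with at least 5 CPM. Of the 24, 11 were higher in cKO (background 6.54%, or 7.88% of genes with at least 5 CPM) and 13 were lower (background 7.6%, or 7.41%). After median centring of each library the split was 17 higher and 12 lower, against a background of 15.8% in that fit. The other 261 members did not pass. Log2 fold changes (cKO minus WT, on the log2(CPM + 1) scale) ran from -0.38 to 0.28, with a median of 0.02, against 0.01 over all genes tested and 0.02 over those with at least 5 CPM, and were positive in 160 members and negative in 125. No member moved by more than 0.5 log2 units, against 221 of the 12188 genes with at least 5 CPM (1.81%), and 191 members were within 0.1. The median absolute change of the 24 was 0.24, and over all members the median SD between libraries was 0.09 in WT and 0.11 in cKO. The 24 were picked by a test of change against spread, so their change being above these SDs follows from that choice.

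**Figure D1:**
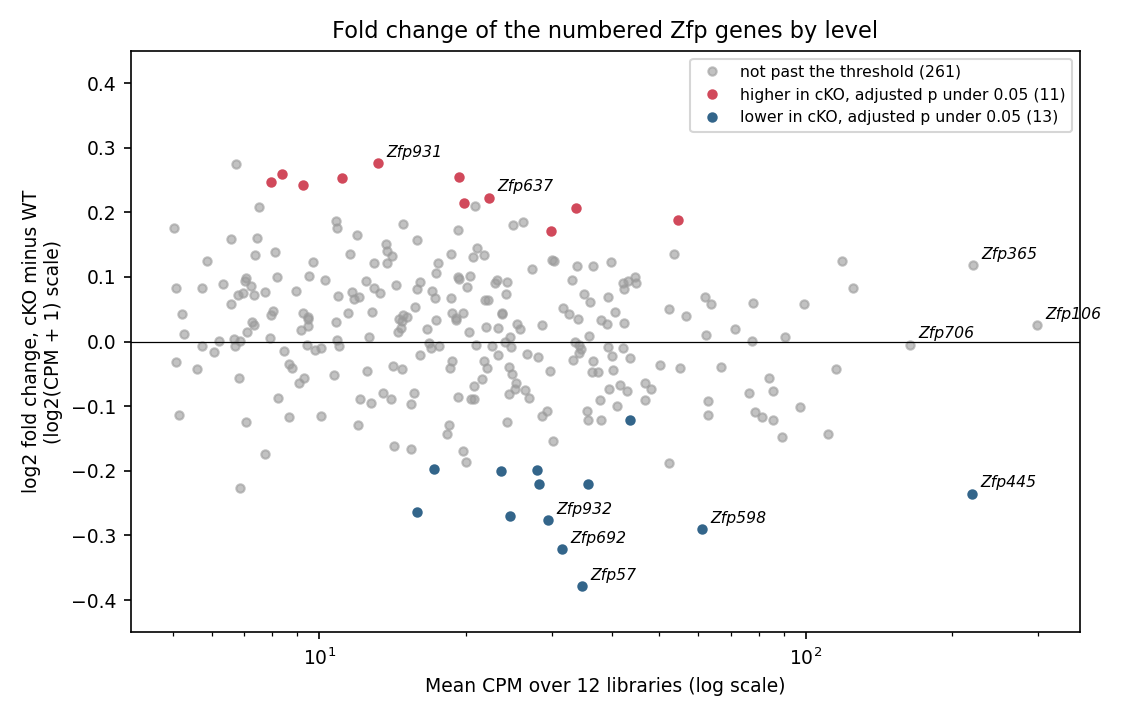
Log2 fold change (cKO minus WT, log2(CPM + 1) scale) of each of the 285 members against its mean CPM over 12 libraries on a log axis. Red points are the 11 members higher and blue points the 13 lower at an adjusted p under 0.05 by limma, and grey points the 261 others. All points lie between -0.38 and 0.28, and the called genes are spread over levels, with Zfp445 the called member of highest mean, at 220 CPM.

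These counts moved with the libraries that were fitted, as did the number of calls over all genes. Leaving out 1 library at a time gave 13 to 27 calls, with the highest count without WT 5, where the background was 15%. Without WT 1 there were 13 (5 higher, 8 lower), or 4.56% against 7.55% of all genes in that fit, and without cKO 14 there were 14 (6 higher, 8 lower), or 4.91% against 9.46%. The number higher was 5 without cKO 8 (background of calls in either direction 11%) and 7 without WT 7 (11.5%), WT 11 (10%) or cKO 13 (10.1%), and the number lower was 8 without cKO 9 (9.76%). Without both cKO 13 and cKO 14, which stood apart as described below, 4 members passed, against a background of 3.69% of all genes in that fit: Zfp637 was higher, and Zfp57, Zfp445 and Zfp598 were lower. Of the 24 calls, 12 passed in all 12 fits that left out 1 library: Zfp637, Zfp35, Zfp267 and Zfp931 among the higher genes, and Zfp57, Zfp445, Zfp598, Zfp276, Zfp467, Zfp384, Zfp641 and Zfp653 among the lower. The level of thalamic markers also moved with the groups. With the thalamic score as a covariate 4 members passed, against a background of 2.27%, of which 3 were among the 24 (Zfp57, Zfp467 and Zfp692, all lower). The fourth was Zfp365, higher by 0.39 (adjusted p 0.0328 by limma). With hypothalamic and thalamic scores together 10 members passed, against a background of 5.68%. With every gene above 0 in the test 18 passed (7 higher, 11 lower), against 4.86% of 31802 genes. That base also holds genes far below the 5 CPM minimum of the members, so the 2 shares are not alike. With the thalamic score all 11 higher members kept a positive and all 13 lower members a negative value, the median absolute log2 fold change of the 24 was 0.26 (0.24 without the score), and the absolute value of 17 of them was larger than without it.

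The KRAB factors of imprinting and retroelement silencing held the largest fall. Of 6 members listed in this role 3 were lower and none was higher, with a median log2 fold change of -0.13, where 7.6% of all genes tested were lower. With the thalamic score 1 of the 6 was lower, and without cKO 13 and cKO 14 the number was 2. Zfp57 and Zfp445 are the KRAB proteins known to protect methylation at imprinted loci. Zfp57 was at 31.4 CPM in the lowest WT library, at a WT median of 38.8 and at 42.5 CPM in the highest, and at 28.7, 28.8, 30.4, 27.7 and 30.5 CPM in cKO 8, 9, 12, 13 and 14. Every cKO library thus lay below every WT library, though the highest cKO value and the lowest WT value were close. The log2 fold change was -0.38 (SE 0.07, adjusted p 0.00586 by limma), from means of 38.5 ± 3.99 (SD, n = 7) and 29.2 ± 1.22 CPM (SD, n = 5), a fall of 24.0%, with an exact two-sided permutation p of 0.00379. In the authors' deposited table it was -0.40, with a false discovery rate of 0.000286.

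Zfp445 was at 209 CPM in the lowest WT library, at a WT median of 232 and at 255 CPM in the highest. In cKO 8, 9, 12, 13 and 14 it was at 189, 186, 199, 215 and 205 CPM. The groups overlapped through cKO 13 alone, and the other 4 cKO libraries lay below all WT libraries. The log2 fold change was -0.24 (SE 0.05, adjusted p 0.0139 by limma; exact two-sided permutation p 0.00505). With the thalamic score it was -0.25 with an adjusted p of 0.0961 by limma, while Zfp57 was at -0.44 (adjusted p 0.0395 by limma). Zfp932, which represses endogenous retroviruses together with its copy Gm15446, was at 26.3 to 36.4 CPM in WT (median 32.3) and at 29.0, 25.6, 25.2, 26.7 and 23.9 CPM in cKO. Its groups overlapped, and its log2 fold change was -0.28 (SE 0.07, adjusted p 0.0244 by limma). That call was lost without WT 1 (adjusted p 0.0535), without cKO 9 (0.0514) and without cKO 14 (0.0602). Of the 50-base words of its longest annotated transcript, 45.2% also occur in other genes, of which Gm15446 shares the most. The division of reads between Zfp932 and these genes is thus uncertain. The other 3 did not pass: Zfp961 at 0.12 (adjusted p 0.224 by limma), Zfp809, which recognises the primer binding site of murine leukaemia viruses, at 0.09 (0.516), and Zfp568, which silences a placental transcript of Igf2, at -0.02 (0.917).

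Zfp598 had the next fall with separate groups. It is a ubiquitin ligase that marks ribosomes that have collided on a messenger RNA. It was at 59.9 CPM in the lowest WT library, at a WT median of 67.9 and at 71.9 CPM in the highest, and at 53.0, 54.6, 56.5, 51.6 and 53.5 CPM in cKO 8, 9, 12, 13 and 14. No cKO library reached the lowest WT library, and the cKO values spread less than the WT values. The log2 fold change was -0.29 (SE 0.05, adjusted p 0.00431 by limma; exact two-sided permutation p 0.00253), a fall of 18.7%. Of the 8 members listed as RNA, ribosome and ubiquitin proteins this was the 1 call (background 14.1%), and the median log2 fold change of the 8 was 0.02. After GC and length correction 1 of the 8 was higher and 2 were lower. Zfp638, which silences unintegrated retroviral DNA with the HUSH complex, was at 0.13 (adjusted p 0.103 by limma), and at 0.15 (0.0143) after that correction. Zfp207, a spindle and splicing protein, was at -0.14 (adjusted p 0.0848 by limma), at -0.19 (0.0296) after the correction and at -0.16 with DESeq2 (adjusted p 0.0379). Zfp106, the most abundant member, was at 266 to 325 CPM in WT (median 297) and at 260, 303, 316, 298 and 334 CPM in cKO, a log2 fold change of 0.03 (SE 0.06, adjusted p 0.815 by limma). Antisense exons, those of Gm26899 the most, cover 26.1% of its exon bases, and the strand setting is not given in the sources used here.

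The members without KRAB that act in transcription or neural development showed 1 call among 22 (background 14.1%), which was lower, with a median log2 fold change of -0.06. With the thalamic score the median was 0.00043, with 0 calls (background 2.27%). Without cKO 13 and cKO 14 it was -0.04, also with 0 calls (background 3.69%). After correction for transcript GC content and length the median was -0.01 and there were 2 higher calls, Zfp219 (adjusted p 0.0290 by limma) and Zfp521 (0.0194), and 1 lower. The call in the main fit was Zfp384, also named Nmp4, a nuclear matrix factor that restrains bone formation. It was at 26.0 to 31.6 CPM in WT (median 30.3) and at 26.8, 26.6, 25.1, 24.6 and 25.2 CPM in cKO, a log2 fold change of -0.20 (SE 0.05, adjusted p 0.0209 by limma). Its groups overlapped through the lowest WT library. It shares 13.1% of its 50-base words with other genes, the most with Gm11405. Zfp609, a partner of the cohesin loader Nipbl, was at 49.1 to 60.6 CPM in WT (median 54.8) and at 51.0, 50.1, 53.1, 38.4 and 49.7 CPM in cKO, a log2 fold change of -0.19 (SE 0.08, adjusted p 0.114 by limma). The lowest value was that of cKO 13, and without that library the log2 fold change was -0.11 (adjusted p 0.228 by limma). Zfp143, which binds promoters at loop anchors, was at 9.71 to 11.95 CPM in WT (median 10.5) and at 11.1, 9.75, 12.7, 12.2 and 9.17 CPM in cKO, a log2 fold change of 0.03 (SE 0.08, adjusted p 0.838 by limma). Zfp423, a regulator of neural and fat cell differentiation, was at -0.15 (adjusted p 0.146 by limma).

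Of the remaining lower members, 5 had groups that did not overlap. Zfp276 was at 16.2 CPM in the lowest WT library, at a WT median of 16.9 and at 19.5 CPM in the highest, and at 12.8, 14.9, 14.5, 14.3 and 14.1 CPM in cKO 8, 9, 12, 13 and 14. The log2 fold change was -0.26 (SE 0.06, adjusted p 0.0103 by limma), and after GC and length correction -0.18 (adjusted p 0.0547). Antisense exons, those of Fanca the most, cover 19.4% of its exon bases. Zfp467, which favours the fat cell over the bone cell fate, was at 35.2 to 40.7 CPM in WT (median 38.5) and at 32.1, 33.2, 34.8, 29.6 and 32.4 CPM in cKO, with a log2 fold change of -0.22 (SE 0.05, adjusted p 0.0121 by limma). Its highest cKO value lay just below its lowest WT value. Zfp653 was at 17.3 to 19.0 CPM in WT (median 18.3) and at 15.4, 16.4, 16.5, 15.2 and 15.2 CPM in cKO. Its log2 fold change was -0.20 (SE 0.05, adjusted p 0.0144 by limma). It shares 15.1% of its 50-base words with other genes, the most with Gm49318. Exact two-sided permutation p was 0.00126, the smallest that 7 against 5 libraries allow, for each of Zfp276, Zfp467 and Zfp653.

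Zfp414 and Zfp715 depended on more of the libraries. Zfp414 was at 22.7 to 28.4 CPM in WT (median 25.5) and at 22.6, 21.7, 20.99, 20.8 and 22.1 CPM in cKO, a log2 fold change of -0.20 (SE 0.06, adjusted p 0.0306 by limma). Its ranges nearly touched, and it shares 43.9% of its 50-base words with other genes, the most with Gm20507. The call was lost without WT 1, WT 11, cKO 9, cKO 12, cKO 13 or cKO 14 (adjusted p up to 0.0639). Zfp715 was at 42.8 to 46.9 CPM in WT (median 44.95) and at 39.9, 41.6, 41.5, 42.5 and 41.5 CPM in cKO. Its change was the smallest of the 24, at -0.12 (SE 0.03, adjusted p 0.0313 by limma), and was lost without WT 1, WT 4, WT 6, WT 11, cKO 8, cKO 9 or cKO 14 (adjusted p up to 0.0704). The other 3 lower members, Zfp692, Zfp641 and Zfp395, had overlapping groups and log2 fold changes of -0.32, -0.27 and -0.22. Zfp692 was lost without WT 1, WT 6, WT 11, cKO 8, cKO 9 or cKO 14 (adjusted p up to 0.0777), and Zfp395 passed in 2 of the 12 fits (adjusted p up to 0.0764).

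Among the 11 higher members 4 had groups that did not overlap. Zfp637 was at 19.1 CPM in the lowest WT library, at a WT median of 20.999 and at 21.6 CPM in the highest, and at 24.8, 23.7, 24.9, 24.9 and 23.8 CPM in cKO 8, 9, 12, 13 and 14. The gap between the groups was wider than the spread within cKO. The log2 fold change was 0.22 (SE 0.04, adjusted p 0.00679 by limma; exact two-sided permutation p 0.00126), a rise of 17.5%. Zfp35 was at 17.3 to 19.97 CPM in WT (median 18.4) and at 22.3, 21.7, 20.01, 21.3 and 22.7 CPM in cKO, a log2 fold change of 0.21 (SE 0.05, adjusted p 0.0163 by limma), with the lowest cKO library just above the highest WT library. Zfp267 was at 28.6 to 33.5 CPM in WT (median 32.0) and at 35.5, 35.1, 38.2, 35.8 and 38.1 CPM in cKO, a log2 fold change of 0.21 (SE 0.05, adjusted p 0.0146 by limma). Zfp113 was at 7.43 to 9.25 CPM in WT (median 8.65) and at 10.7, 10.7, 10.6, 9.64 and 9.71 CPM in cKO, a log2 fold change of 0.24 (SE 0.07, adjusted p 0.0276 by limma). Its call was lost without cKO 8 (adjusted p 0.0581), cKO 9 (0.0629) or cKO 12 (0.0533). In both directions together 11 members passed limma with groups that did not overlap, where the background was 6.3%. Over all members 14 (4.91%) had groups that did not overlap, 7 in each direction, against a background of 6.73%, and 3 of these (Zfp62, Zfp68 and Zfp449, named after their values were seen) did not pass limma.

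**Figure D2:**
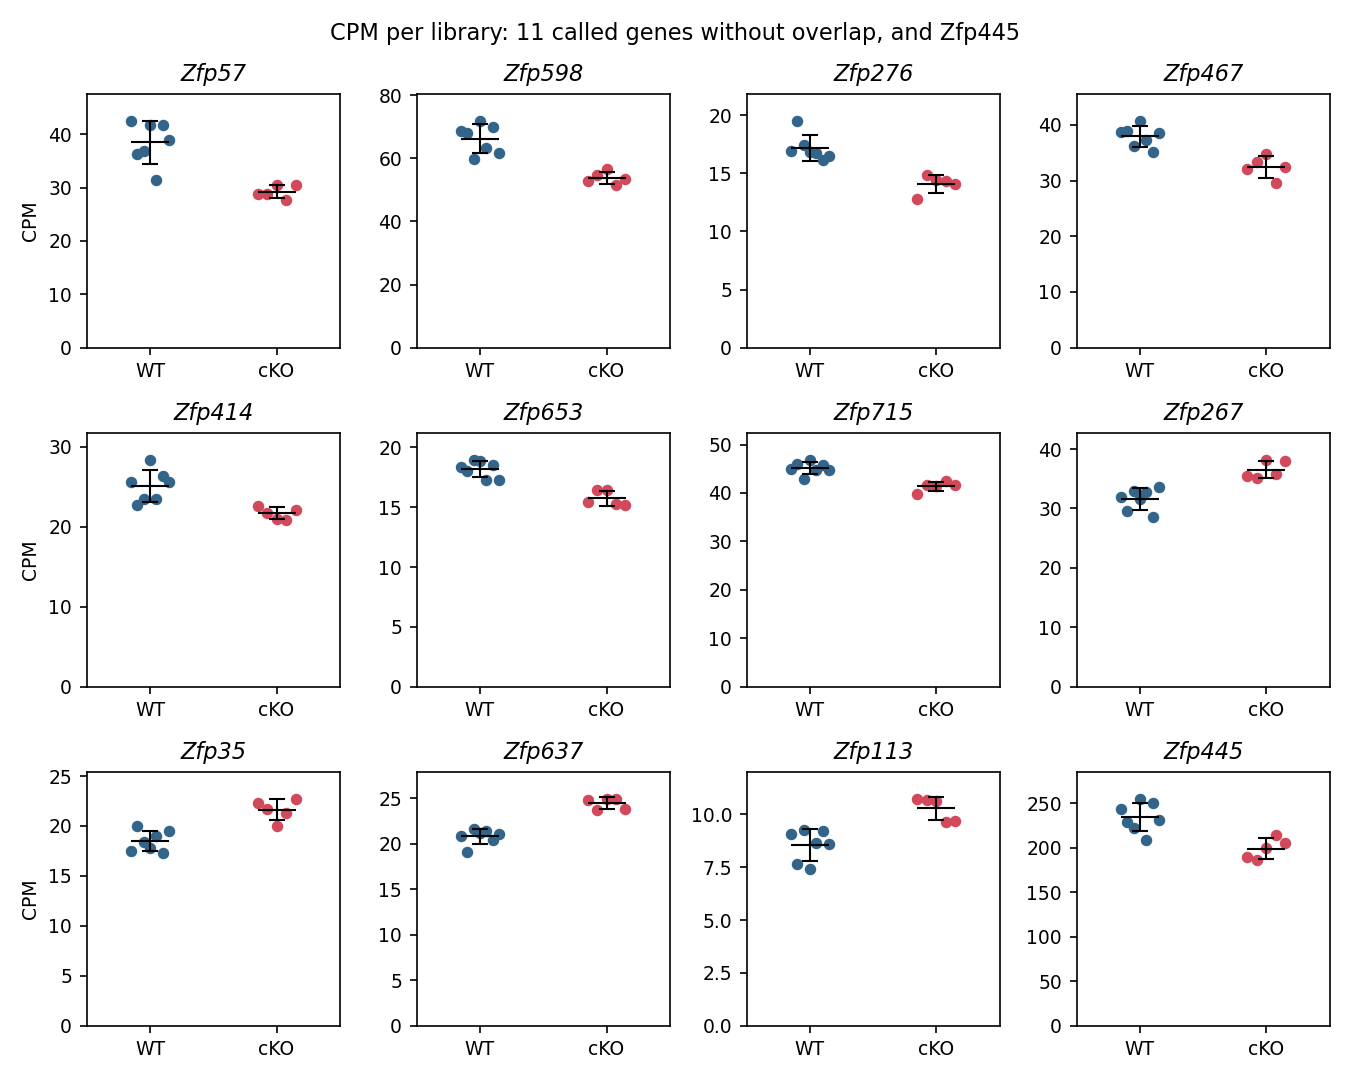
CPM in each of 7 WT (blue) and 5 cKO (red) libraries for the 11 called members whose groups do not overlap and for Zfp445, with the mean and SD as black bars and each axis starting at 0. Zfp57 spans 31.4 to 42.5 CPM in WT and 27.7 to 30.5 CPM in cKO, and every cKO library lies above every WT library in the 4 higher genes (Zfp267, Zfp35, Zfp637 and Zfp113) and below them all in the lower genes except Zfp445.

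The other 7 higher members had overlapping groups. Among them Zfp931 had the largest rise, at 11.2 to 13.6 CPM in WT (median 11.7) and at 13.6, 14.6, 14.4, 16.2 and 15.2 CPM in cKO, a log2 fold change of 0.28 (SE 0.06, adjusted p 0.0107 by limma). Only its lowest cKO library met the highest WT library. It shares 16.7% of its 50-base words with other genes, the most with Zfp970. Zfp597, an imprinted gene expressed from the maternal copy, was at 26.3 to 29.5 CPM in WT (median 28.5) and at 32.2, 28.7, 32.8, 32.0 and 34.4 CPM in cKO, a log2 fold change of 0.17 (SE 0.05, adjusted p 0.0329 by limma). It overlapped through cKO 9 and passed in 4 of the 12 fits that left out a library (adjusted p up to 0.0796). Antisense exons, those of Gm26675 the most, cover 27.1% of its exon bases. Zfp442 and Zfp937, at 0.26 and 0.25, share 32.3% and 29.4% of their 50-base words with other genes. Each shares the most with the other, so the division of reads between them is uncertain. Zfp442 passed in 2 of the 12 fits (adjusted p up to 0.116) and Zfp937 in 5 (up to 0.0707). Zfp811 (0.25), Zfp72 (0.25) and Zfp260 (0.19) passed in 9, 5 and 8 of the 12 fits, with adjusted p up to 0.0576, 0.0917 and 0.0656. The authors' deposited table gave 13 members a false discovery rate under 0.05, 5 higher and 8 lower. The background there was 4.94% of 32494 genes, a base that also holds genes far below the members' minimum and is thus unlike them. All 13 were among the 24 with the same direction (54.2% of the 24).

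The protein class of the members was read from coding sequences, which were available for 281. A KRAB domain was found in 145 and not found in 136, and 12 members held a SCAN domain. Members with KRAB had a median of 12 fingers and those without it 8, with up to 36 in 1 protein. KRAB members were lower in level, with a median of 4.32 CPM per kilobase against 6.503, and lower in transcript GC content, at a median of 43.1% against 49.3%. Of the KRAB members 5 were higher and 4 lower in cKO (8 and 4 after median centring and after quantile normalization), with a median log2 fold change of 0.04 and 94 of 145 positive. After GC and length correction their median was 0.02, against 0.03 over all genes in that fit. Without cKO 13 and cKO 14 it was 0.0089, with 0 higher and 2 lower calls (background 3.69%). With the thalamic score it was 0.04, with 0 higher and 1 lower (background 2.27%). Of those without KRAB 5 were higher and 9 lower (8 and 8 after median centring, 9 and 8 after GC and length correction), with 65 of 136 positive. Their median was -0.01, and it was 0.01 after median centring or after GC and length correction, so its sign depended on the scaling. Leaving out 1 library gave -0.017 (without cKO 14) to -0.0030 (without WT 1) for members without KRAB, and 0.027 (without cKO 14) to 0.050 (without WT 4) for those with it. The finger pattern was not found in 6 members, which had 0 calls, also after GC and length correction. By number of fingers, 51 members with 1 to 5 had 0 higher and 8 lower calls, 84 with 6 to 10 had 4 and 1, and 140 with more than 10 had 6 and 4. The same classes had 3 and 7, 6 and 1, and 5 and 4 after GC and length correction. Over all genes tested 6.54% were higher and 7.6% lower. None of the 12 SCAN members passed limma. At an unadjusted limma p under 0.05 there were 4, where 31.1% of all genes tested were under that value. No test compared these classes.

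Changes of the members followed the GC content of their transcripts. Across 283 members, which are not independent replicates, Spearman's rho between GC content and log2 fold change was -0.368, and across all 14515 tested genes with a transcript it was -0.216. In the 95 members under 42.4% GC 7 were higher and 2 lower, with a median of 0.06, while in the 94 members over 48.9% none was higher and 9 were lower, with a median of -0.03. All tested genes in the same GC ranges had medians of 0.06 and -0.01, with 205 higher and 74 lower of 1973 in the low range (14.1% called, against 9.47% of the members there) and 362 and 710 of 7940 in the high range (13.5%, against 9.57%). The called higher members had a median GC content of 41.1% and the lower ones of 54.4%. After a spline correction of each library for GC content and length, rho across members was -0.00620. The correction subtracts each library's trend on these features, so the loss of the slope largely follows from it. Of the 23 calls with a transcript 18 still passed, with 14 higher and 12 lower members in all against a background of 15%. The same correction took all tested genes from 1004 higher and 1168 lower to 1318 and 862. The high-GC members then had 5 higher and 7 lower calls and a median of 0.03, while all genes in that range had 780 higher and 494 lower calls and a median of 0.03. Zfp57 was at -0.42 (adjusted p 0.00447 by limma) and Zfp445 at -0.23 (0.0129) after the correction.

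**Figure D3:**
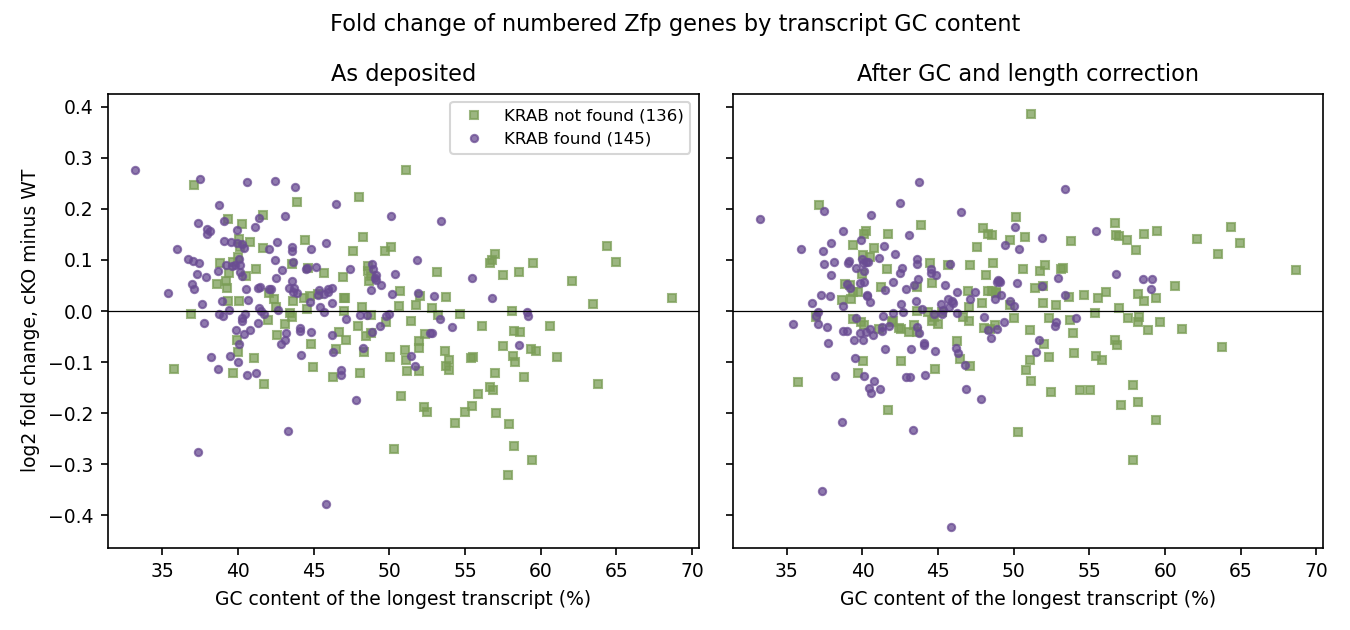
Log2 fold change (cKO minus WT) against the GC content of the longest transcript in percent, as deposited (left) and after correction for GC content and length (right), for 145 members with KRAB found (purple circles) and 136 without (green squares). The downward slope on the left, with a rho of -0.368 over 283 members, is flat on the right, at -0.00620. The correction subtracts the trend on GC content, so the flat slope largely follows from it. Zfp57 stays the lowest point.

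By library, the separation of low-GC and high-GC members was widest in cKO 13 and cKO 14. The median difference of the low-GC members from the WT mean ran from -0.05 to 0.03 across WT libraries, and was 0.11 in cKO 13 and 0.13 in cKO 14 against 0.01 to 0.04 in the other 3 cKO libraries. High-GC members ran from -0.05 to 0.03 in WT and from -0.12 (cKO 13) to -0.01 in cKO. With both libraries left out, the low-GC median was 0.02 and the high-GC median -0.01. The part of RNA quality, library preparation or tissue composition in this was not tested.

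**Figure D4:**
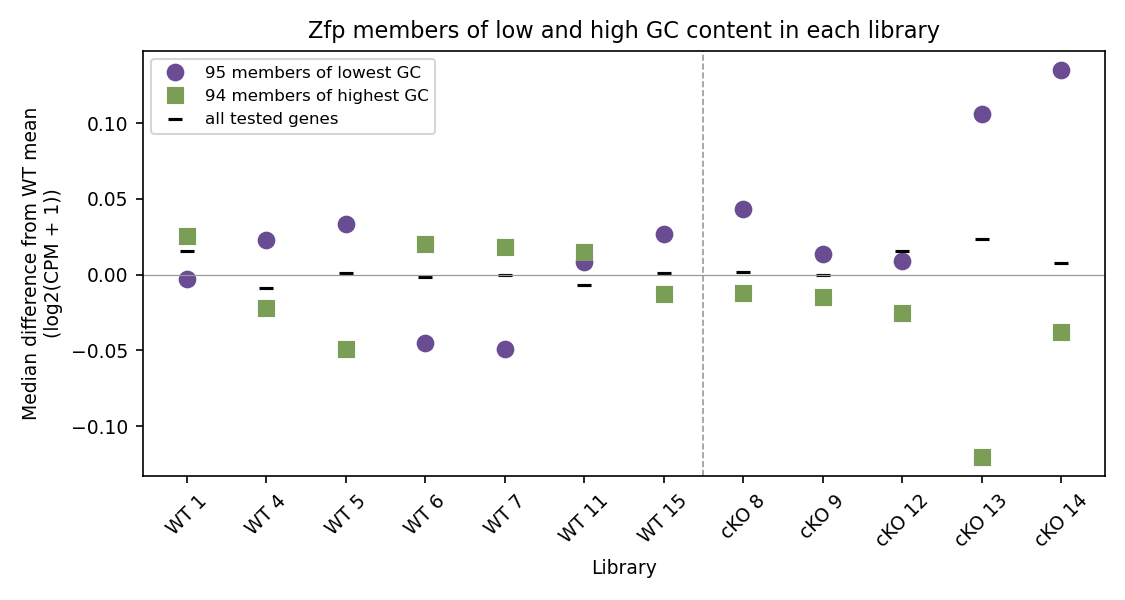
Median difference from the WT mean (log2(CPM + 1)) of the 95 members of lowest GC (purple circles), the 94 of highest GC (green squares) and all tested genes (black dashes) in each of the 12 libraries. In cKO 13 and cKO 14 the low-GC members stand at 0.11 and 0.13, above all WT libraries, and the high-GC members of cKO 13 at -0.12.

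Genes of the machinery that KRAB proteins recruit were read from the same fit, as a list chosen with results of these data known. Of 37 tested, 3 were higher and 2 lower (13.5%, against a background of 14.1%), with a median log2 fold change of -0.01 (6 higher and 0 lower after GC and length correction, where all tested genes also turned from more lower to more higher calls, as given above). Trim28 itself was at 123 to 146 CPM in WT and at 123 to 145 CPM in cKO, a log2 fold change of -0.04 (SE 0.05, adjusted p 0.641 by limma), and Setdb1 was at -0.07 (adjusted p 0.3004). Mphosph8, the chromodomain subunit of the HUSH complex, was higher, at 64.1 to 73.4 CPM in WT and 76.9 to 98.7 CPM in cKO with no overlap, a log2 fold change of 0.31 (SE 0.06, adjusted p 0.00640 by limma), and with the thalamic score the adjusted p was 0.0370. Rbbp4 (0.15, adjusted p 0.0113) and Mta3 (0.18, adjusted p 0.0369), of the NuRD deacetylase complex, were also higher by limma. Chd4, the NuRD remodeller, was lower by -0.16 (adjusted p 0.0186), as was the methyltransferase Dnmt3a by -0.22 (adjusted p 0.0245). Neither Chd4 nor Dnmt3a passed after GC and length correction (0.115 and 0.127). With the thalamic score none of Rbbp4 (adjusted p 0.185 by limma), Mta3 (0.666), Chd4 (0.0772) and Dnmt3a (0.182) passed. Without WT 1 or without cKO 14, 3 of the 37 passed. Zfp410, a member known to control Chd4 transcription, was at 24.4 to 28.8 CPM in WT (median 25.5) and at 23.0, 21.2, 25.2, 29.0 and 25.5 CPM in cKO, a log2 fold change of -0.06 (SE 0.07, adjusted p 0.555 by limma). That value was -0.012 without cKO 9 and -0.12 without cKO 13.

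On the GENCODE M21 annotation of GRCm38, 283 members had a position, and 75 of them lay on chromosome 7. Runs of at least 5 members with gaps of at most 1 Mb numbered 15 and held 130 members. In 11 of the 15 runs no member passed, and in all runs together 2 were higher and 3 lower, where 8.42% of all members and 14.1% of all genes tested passed. The largest run, on chromosome 17 between 21008903 and 23599487, held 17 members, 16 of them with KRAB, with no call and a median log2 fold change of 0.04. Chromosome 2 held 16 members, of which 3 were higher (Zfp931, Zfp937 and Zfp442) and none lower, and the last pair share sequence as given above. The build that the authors used is not given in the sources used here, so positions describe the reference annotation only.

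Related families were read from the same fit, for genes with at least 5 CPM unless stated, where 15.3% of all genes passed (14.1% of all genes tested). Of 41 numbered Zfp genes between 1 and 5 CPM, 2 were higher and 1 lower, with a median log2 fold change of 0.07. Of 24 Zfp genes with a letter after the number, 2 were higher and 2 lower, with a median of 0.05, and after GC and length correction 0 were higher and 2 lower. The 36 Zbtb genes, which pair zinc fingers with a BTB domain, had 5 lower and 0 higher calls (13.9%) and a median of -0.03. After GC and length correction they had 4 lower and 1 higher and a median of 0.01. The Zkscan genes had 1 lower call among 11, the Klf genes 1 higher and 1 lower among 13, and the 9 Zscan, 6 Sp, 4 Zic and 2 Egr genes had none (1, 3, 0 and 0 at an unadjusted limma p under 0.05). Over all genes tested, 31.1% had an unadjusted limma p under 0.05. No test compared these families with the numbered Zfp genes.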

How the data were processed

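NEBNext Ultra II RNA libraries were made from messenger RNA isolated out of column-purified RNA, per the labels' protocols. The submitters' processing notes name bcl2fastq, FastQC 0.11.9, STAR 2.7.9a, SAMtools, Subread and featureCounts. The strand setting, the annotation and the genome build are not given in the sources used here. The authors deposited 12 columns of normalized CPM over 32494 genes. Their second deposited table compares the groups, with log2 fold change and log2 mean CPM, p-value and false discovery rate per gene. All 12 CPM columns were mapped to samples by name, and 0 columns were left unused. The deposited CPM values were whole multiples of a step in each library for 100% of values (tolerance 0.001 reads), which gave the depths of 17.1 to 68.7 M reads. A level of 3 reads is 0.0436 CPM in WT 1 and 0.178 CPM in cKO 14, which covers counting error only.

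The main test was limma 3.58.1 (R 4.3.3; lmFit, then eBayes with its trend option), two-sided, on log2(CPM + 1) of the 15359 genes whose mean reached 1 CPM, with Benjamini-Hochberg adjustment and a threshold of 0.05. The log2(CPM + 1) scale understates changes of low genes. Single genes also had a two-sided exact permutation test on CPM over the 792 splits of 12 libraries into 7 and 5. On simulated counts for this comparison with genes changed by 1 log2 unit, 185 of 198 changed genes (93.4%) were recovered among 15291, with 15 false calls (7.5% of calls). No member moved by more than 0.5 log2 units, so this share does not tell how often changes of the members' size are recovered. Nothing beyond the mouse numbers in the titles says that libraries are separate animals, so p-values measure the spread between these libraries. The chi-square per degree of freedom between replicates, over genes with at least 20 reads, was 3.04 to 26.3 in 31 pairs, so none was a repeat deposit.

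The members were proposed, and the lists and tests chosen, with earlier results of these data known, although the rule for members uses only the mean level. The genes described are the 5 members with the highest mean, up to 8 called rises and 8 called falls with groups that do not overlap, members of 3 role lists and the 3 rows on each side of the 5 CPM minimum. Other called members were added after their values were seen. GC content, length, shared words of 50 bases and overlapping exons came from GENCODE M21 transcripts (283 of 285 members, not Zfp267 or Zfp660). Fingers (2 cysteines, 12 residues, 2 histidines) and KRAB and SCAN patterns were searched in their translated coding sequences, so a domain not found is only a pattern not found. Alternatives were median centring, quantile normalization, a pseudocount of 0.1, other filters, a spline correction (4 degrees of freedom) for GC content and length, marker scores as covariates, edgeR 4.0.16 and DESeq2 1.42.0 on the recovered reads, and leaving out libraries. Against 2172 genes called by limma, the recovered reads gave 2097 with the quasi-likelihood test of edgeR and 2747 with DESeq2.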

Additional observations from a re-analysis of the deposited data

Results flagged for a closer look

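In 56 groups of CPM values, each group was searched for 1 library set apart from all others, and 2 were found. Chance alone gives about 1 in 20, or 2.8. The lowest WT value of Zfp612, 93.9 CPM in WT 11, lay under the next WT library at 121 CPM. The highest WT value of Zfp276, 19.5 CPM in WT 4, lay above the next at 17.4 CPM.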

How the results depend on the processing

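No paired analysis was possible because the mouse numbers of WT and cKO share no value. For the 58 genes followed singly, including every called member, 1114 of 1333 values under alternatives kept their direction and side of the threshold, 145 lost the threshold, 9 gained it and 65 changed sign, all of them of genes that passed in neither fit. Of the 24 calls, edgeR kept 23 (Zfp442 had an adjusted p of 0.0535), DESeq2 24, the thalamic score 3 and both marker scores 8. With the thalamic score 4 members passed (1 higher, 3 lower), with both scores 10 (1 higher) and 4 without cKO 13 and cKO 14 (1 higher, 3 lower), an alternative chosen after seeing the data. The number higher was 17 after median centring and 7 over all genes above 0. Leaving out 1 library gave 13 to 27 calls, 5 to 13 higher and 8 to 14 lower. The median over members was 0.033 after median centring, -0.0015 without cKO 13 and cKO 14, and 0.0042 (without cKO 14) to 0.026 when 1 library was left out. The median of KRAB members was 0.0089 without cKO 13 and cKO 14, and that of members without KRAB 0.014 after GC and length correction. Of the KRAB silencing genes, the thalamic score left 1 past the threshold (1 higher, 0 lower) and both scores left 2 (1 higher, 1 lower). There were 2 without cKO 13 and cKO 14 (0 lower), 6 higher and 0 lower after GC and length correction, and 3 to 6 (2 to 4 higher, 1 to 2 lower) when 1 library was left out. Fewer libraries were fitted in the fits that left some out. Beyond that, the cause was not tested. With 5 libraries in cKO and a median SD of 0.11 log2 units, small changes are uncertain, and whether more so in low members was not tested. The log2 fold changes that changed sign were, with the thalamic score, Zfp706 0.088, Zfp612 -0.14, Zfp423 0.027, Zfp148 0.11, Zfp219 -0.027, Zfp335 0.00046, Zfp281 0.029, Zfp608 0.038, Zfp507 0.012, Zfp503 0.077, Zfp143 -0.046 and Zfp568 0.0026. With both scores they were Zfp706 0.10, Zfp612 -0.14, Zfp423 0.011, Zfp148 0.099, Zfp219 -0.040, Zfp622 -0.0073, Zfp281 0.042, Zfp326 -0.0011, Zfp516 -0.028, Zfp503 0.034 and Zfp568 0.063. After GC and length correction they were Zfp622 -0.00079, Zfp335 0.026, Zfp592 0.017, Zfp608 0.038, Zfp507 0.015, Zfp143 -0.012 and Zfp568 0.023. Without cKO 13 and cKO 14 they were Zfp106 -0.018, Zfp91 -0.0076, Zfp622 -0.011, Zfp644 -0.017, Zfp608 0.028, Zfp809 -0.025 and Zfp217 -0.0010. Median centring turned Zfp706 (0.0092) and Zfp608 (0.0062), quantile normalization Zfp568 (0.025), edgeR Zfp217 (-0.0012) and DESeq2 Zfp217 (-0.0089). When 1 library was left out, the range crossed 0 for Zfp106 (-0.011 to 0.078), Zfp706 (-0.030 to 0.013), Zfp622 (-0.0093 to 0.035), Zfp608 (-0.054 to 0.065), Zfp516 (-0.0078 to 0.10), Zfp143 (-0.021 to 0.087), Zfp568 (-0.038 to 0.026) and Zfp217 (-0.017 to 0.050).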

Other observations

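Some members varied more between libraries of a group than between groups. Zfp536, a repressor of neuronal differentiation, had the largest SD among WT libraries, 0.40 on the log2 scale, against a median of 0.09 over members. It ran from 19.1 to 43.5 CPM in WT and from 18.3 to 44.5 CPM in cKO, and its log2 fold change was -0.15 (limma adjusted p 0.669). That value was -0.017 without cKO 8, -0.33 without cKO 12 and -0.60 with the thalamic score (limma adjusted p 0.225 with the score). Zfp831 was next, with an SD of 0.38 and levels of 3.95 to 9.75 CPM in WT and 5.13 to 12.04 CPM in cKO (log2 fold change 0.28, limma adjusted p 0.383). Zfp92 followed at an SD of 0.25, with 20.6 to 33.2 CPM in WT and 20.5 to 28.0 CPM in cKO. These genes were chosen for their spread, so their values are a description.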
